A study of Mus musculus with 12 samples.

Results

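Vim, Fn1, Snai1, Snai2, Zeb1, Zeb2, Twist1, Twist2 and S100a4 are genes commonly used to describe a mesenchymal transition. The 9 genes were taken by symbol from a table of gene counts that holds 53599 genes, and each symbol was found once. Of the 9 genes, 5 (Vim, Fn1, Snai2, Zeb1 and Zeb2) were among the 16210 genes with enough counts to be tested, and 4 (Snai1, Twist1, Twist2 and S100a4) were not. Cells sorted from mouse liver gave 12 bulk RNA libraries, 3 in each of 4 groups. All groups came from wild-type mice that had received AAV8-TBG-Cre, a virus that carries Cre recombinase under a hepatocyte promoter, and from 1 week later a diet with 0.1% DDC, a compound that injures bile ducts, for 8 weeks. The early group was sorted as EGFP+ Cd24- Epcam-, the intermediate group as EGFP+ Cd24+ Epcam- and the full group as EGFP+ Cd24+ Epcam+, so that these 3 groups carry the hepatocyte lineage label. The BEC group, sorted as EGFP- Epcam+, holds biliary epithelial cells without the label, and would also take Epcam+ cells of hepatocyte origin that the virus had not labelled. All 4 groups therefore share the virus and the diet, and no group of untreated mice was compared. The reporter allele, the strain, the age and the sex of the mice were not given in the sources used here. The labels do not say whether replicates came from separate mice, so the p-values measure the spread between these libraries, which may be technical.

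In an epithelial-mesenchymal transition, epithelial cells lose junctions and gain the cytoskeleton and matrix of mesenchymal cells. The Snail factors (Snai1 and Snai2), the Zeb factors (Zeb1 and Zeb2) and the Twist factors are DNA-binding proteins of this programme, and the Snail and Zeb factors repress epithelial genes such as Cdh1 through E-box sequences. Vimentin (Vim) is an intermediate filament protein, fibronectin (Fn1) is a matrix glycoprotein that hepatocytes also secrete into plasma, and S100a4 is a calcium-binding protein often used as a fibroblast marker.

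Vim and Zeb2 had the largest increases among the 5 tested members between the early and full groups, and the stretch before the start of each gene is shown to locate common promoter letters. The sequences are 250 bases long, are read 5′ to 3′ on the strand of the gene and end at the base before the RefSeq start (build GRCm38.p6). Capitals mark CCAAT, or its reverse complement ATTGG, and TATAAA. The Vim stretch is chr2:13574061-13574310 on the plus strand. The Zeb2 stretch is chr2:45117443-45117692 on the minus strand, and is the first of 4 starts that the table lists for Zeb2.
Vim: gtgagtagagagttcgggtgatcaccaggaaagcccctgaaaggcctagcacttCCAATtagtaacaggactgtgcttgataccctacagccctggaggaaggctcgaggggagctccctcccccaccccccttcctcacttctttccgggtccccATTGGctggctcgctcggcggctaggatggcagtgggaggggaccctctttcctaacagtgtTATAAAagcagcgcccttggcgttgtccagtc
Zeb2: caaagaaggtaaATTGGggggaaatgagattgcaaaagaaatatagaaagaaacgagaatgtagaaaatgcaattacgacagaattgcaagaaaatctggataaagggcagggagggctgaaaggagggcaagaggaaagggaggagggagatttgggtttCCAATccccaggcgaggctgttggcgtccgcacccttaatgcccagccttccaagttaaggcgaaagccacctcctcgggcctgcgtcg
The Vim stretch held TATAAA starting 32 bases before the start, and CCAAT at 196 bases on the plus strand and at 94 bases on the minus strand. The Zeb2 stretch held CCAAT at 238 bases on the minus strand and at 89 bases on the plus strand, relative to the gene. CCAAT was present in 33.8% and TATAAA in 12.4% of 32851 RefSeq promoter stretches of the same length, counting both strands. Neither stretch held CACCTG, the E-box form bound by Snail and Zeb factors (17.2% of stretches), or the wider CANNTG that includes it (66.2%). Neither held GGGCGG (32.7%), TGANTCA (6.75%) or GGAATG (12.6%). A match is a description of letters, and the lack of one says only that these letters are not in this window. Promoters were also listed for Snai1, Twist1, Twist2 and S100a4.

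The libraries held 15112893 to 19731887 counts each. A floor of 3 counts corresponded to 0.128 to 0.273 CPM, a count relative to the size of its library, and this floor covers counting error only. Mitochondrial genes took 6.001%, 11.4% and 5.45% of counts in early replicates 1, 2 and 3 and 2.20% to 4.75% in the other 9 libraries, so this share moved with every comparison against the early group, and its part in those comparisons was not tested. The summed level of 10 hepatocyte markers was 102668 to 107556 CPM in the early group and 2065 to 2740 CPM in the BEC group, and the 8 biliary markers rose from 966 to 1929 CPM in the early group to 13132 to 16467 CPM in the BEC group. Levels below are CPM on library sizes scaled by the trimmed mean of M-values (TMM). Differences were tested with edgeR's quasi-likelihood test on all 12 libraries, and adjusted p-values are Benjamini-Hochberg values over all tested genes, with a threshold of 0.05. Because RNA was pooled from many cells, more cells that contain a transcript and more of it in each cell cannot be told apart.

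Vim, the filament protein, was high in the intermediate and full groups and low in the early and BEC groups. Its level was 30.6, 26.7 and 27.1 CPM in early replicates 1, 2 and 3, and 332, 289 and 243 CPM in the intermediate replicates. It was 266, 223 and 248 CPM in the full replicates and 8.77, 13.7 and 10.4 CPM in the BEC replicates. The intermediate and full libraries overlapped, and every library of those groups lay above every library of the early and BEC groups. The mean was 28.2 ± 2.14 CPM in the early group, 288 ± 44.5 CPM in the intermediate group, 245 ± 21.4 CPM in the full group and 10.9 ± 2.52 CPM in the BEC group (SD, n = 3 each). Vim rose 10.2-fold from early to intermediate (log2 fold change 3.35, SE 0.16, adjusted p = 2.44e-09). The difference between full and intermediate was -0.23 (SE 0.14, adjusted p = 0.226), with a 95% interval of -0.54 to 0.08. The change at the second step was smaller than that at the first by 3.58 on the log2 scale (second step minus first step -3.58, SE 0.24, adjusted p = 5.78e-07). Vim was 22.4-fold lower in BEC than in full (log2 fold change -4.49, SE 0.17, adjusted p = 4.05e-09). It was also lower in BEC than in early, by 2.57-fold (log2 fold change -1.36, SE 0.16, adjusted p = 3.41e-06), so the order of levels from the lowest was BEC, early, then full and intermediate, which did not differ past the threshold. With library sizes from total counts alone, Vim kept its calls against the early group, at 4.02 from early to intermediate and a smaller -0.49 between BEC and early (adjusted p = 0.0115).

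**Figure D1:**
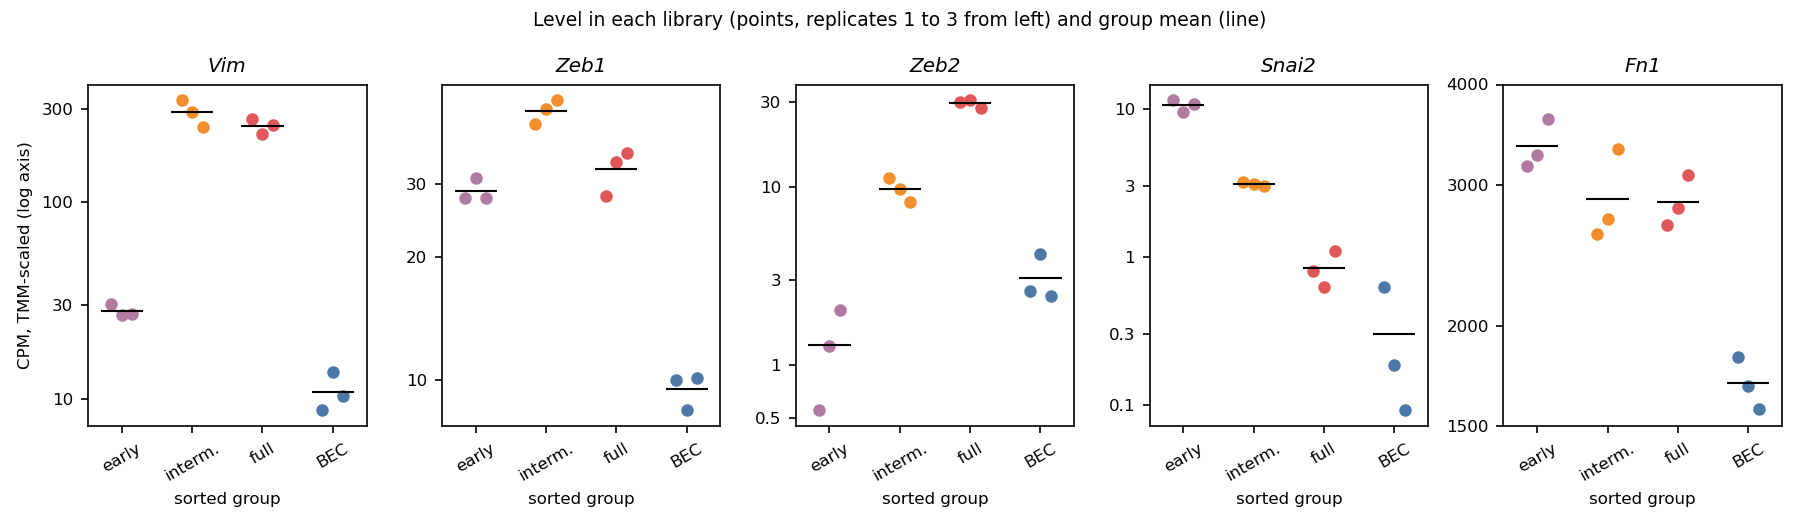
Level of the 5 tested genes in each of the 12 libraries, in CPM on a log axis, by sorted group. Points are libraries and lines are group means. Vim lies between 223 and 332 CPM in the intermediate and full libraries and at 30.6 CPM or less elsewhere, while Snai2 lies at 9.64 to 11.5 CPM in the early libraries and at 3.21 CPM or less elsewhere.

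Zeb2 and Zeb1, the zinc finger and homeodomain repressors, differed in where they peaked. Zeb2 was 0.554, 1.27 and 2.02 CPM in the early replicates, from 7, 14 and 25 counts, and 11.1, 9.75 and 8.21 CPM in the intermediate replicates. It was 29.8, 30.7 and 27.8 CPM in the full replicates and 2.60, 4.19 and 2.42 CPM in the BEC replicates. No Zeb2 library of a group overlapped those of another group. Zeb2 rose 7.54-fold from early to intermediate (log2 fold change 2.91, SE 0.32, adjusted p = 4.09e-06) and 3.04-fold from intermediate to full (log2 fold change 1.60, SE 0.24, adjusted p = 0.00013), which makes 22.9-fold over both steps (adjusted p = 1.58e-08). It was 9.56-fold lower in BEC than in full (log2 fold change -3.26, SE 0.26, adjusted p = 1.23e-06), and 2.39-fold higher in BEC than in early (log2 fold change 1.26, SE 0.34, adjusted p = 0.00443). The early group was thus the lowest of the 4 for Zeb2, and the full group the highest. With total counts alone these calls against early held at larger values, 3.57 in intermediate, 5.38 in full and 2.12 in BEC. The difference between its steps was -1.31 (SE 0.47) and did not pass the threshold (adjusted p = 0.077). It passed with DESeq2 (-1.22, adjusted p = 0.0397), with library sizes from total counts alone (-1.77, adjusted p = 0.0106), with no filter on low counts (-1.34, adjusted p = 0.01) and without early replicate 3 (-1.83, adjusted p = 0.0198).

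Zeb1 was highest in the intermediate group. It was 27.8, 31.0 and 27.8 CPM in the early replicates and 42.1, 45.7 and 48.1 CPM in the intermediate replicates. It was 28.1, 34.0 and 35.8 CPM in the full replicates and 10.02, 8.43 and 10.1 CPM in the BEC replicates. The intermediate libraries lay above all others, the full and early libraries overlapped, and the BEC libraries lay below all others. Zeb1 rose 1.57-fold from early to intermediate (log2 fold change 0.65, SE 0.12, adjusted p = 0.000302) and fell 1.39-fold from intermediate to full (log2 fold change -0.47, SE 0.11, adjusted p = 0.00423). The difference between these steps passed the threshold (-1.12, SE 0.19, adjusted p = 0.00144). Full and early differed by 0.18 (SE 0.12, adjusted p = 0.183), and BEC was 3.43-fold lower than full (log2 fold change -1.78, SE 0.12, adjusted p = 2.96e-07). With total counts alone, the rise of Zeb1 from early to intermediate was 1.31 (adjusted p = 3.20e-07), the fall from intermediate to full did not pass (-0.27, adjusted p = 0.0658) and the difference between full and early did (1.04, adjusted p = 1.42e-06), as the latter also did without full replicate 1 (0.28, adjusted p = 0.0474). Per kb of the longest annotated transcript, Zeb2 made up 2.74% ± 1.59 of the summed Zeb1 and Zeb2 level in the early group, 12.04% ± 2.31 in the intermediate group, 36.6% ± 3.61 in the full group and 17.1% ± 5.98 in the BEC group (SD, n = 3 each). The share in the full libraries, 33.1% to 40.3%, lay above that in every other library.

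Snai2, the Snail factor also called Slug, ran the other way and fell at both steps. It was 11.5, 9.64 and 10.9 CPM in the early replicates and 3.21, 3.12 and 3.00 CPM in the intermediate replicates. It was 0.808, 0.624 and 1.09 CPM in the full replicates, and 0.626, 0.186 and 0.0914 CPM in the BEC replicates, from 13, 4 and 2 counts. The early, intermediate and full groups did not overlap, and BEC replicate 1 lay within the range of the full group. Snai2 fell 3.44-fold from early to intermediate (log2 fold change -1.78, SE 0.33, adjusted p = 0.000405) and 3.67-fold from intermediate to full (log2 fold change -1.88, SE 0.37, adjusted p = 0.00108). It was 35.2-fold lower in BEC than in early (log2 fold change -5.14, SE 0.42, adjusted p = 7.72e-08). Without BEC replicate 1, which held 13 of the 19 counts of that group, this was -6.20, and it ranged from -6.20 to -4.70 over the fits without 1 library. With total counts alone it was -4.28, and the first step was -1.12 (adjusted p = 0.00906). The steps differed by -0.09 (SE 0.56, adjusted p = 0.944, 95% interval -1.30 to 1.11), which includes differences of over 2-fold either way. BEC was lower than full at an adjusted p of 0.0385 (log2 fold change -1.48, SE 0.47). That call was lost in a fit of the 6 libraries of the 2 groups (-1.49, adjusted p = 0.101). It was also lost without early replicate 2 (-1.48, adjusted p = 0.05003), intermediate replicate 2 (-1.48, adjusted p = 0.0532), full replicate 1 (-1.51, adjusted p = 0.0746), full replicate 3 (-1.25, adjusted p = 0.144), BEC replicate 2 (-1.24, adjusted p = 0.147) or BEC replicate 3 (-1.05, adjusted p = 0.137). Without BEC replicate 1 the difference was larger (-2.55, adjusted p = 0.00146).

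Fn1, fibronectin, was the most abundant of the 9 genes per kb of transcript in each group, and had the smallest log2 fold change of the 5 tested at each of the 3 successive comparisons. It was 3163, 3269 and 3625 CPM in the early replicates and 2602, 2720 and 3320 CPM in the intermediate replicates. It was 2675, 2808 and 3084 CPM in the full replicates and 1831, 1683 and 1577 CPM in the BEC replicates. The intermediate libraries overlapped those of the early and full groups, the full libraries lay below the early ones, and the BEC libraries lay below all others. Intermediate and early differed by -0.22 (SE 0.12, adjusted p = 0.148, 95% interval -0.48 to 0.04) and full and intermediate by -0.01 (SE 0.12, adjusted p = 0.946, 95% interval -0.28 to 0.25). Fn1 was 1.68-fold lower in BEC than in full (log2 fold change -0.75, SE 0.12, adjusted p = 0.000523) and 1.98-fold lower than in early (log2 fold change -0.98, SE 0.12, adjusted p = 6.46e-06). The comparisons with the early group depended on the scaling of libraries. With total counts alone, Fn1 was higher in intermediate than in early (0.44, adjusted p = 0.00434) and higher in full than in early (0.63, adjusted p = 0.000219), and the difference between BEC and early did not pass (-0.12, adjusted p = 0.374). That scaling moved the median log2 fold change of all tested genes from 0.06 to 0.72 between intermediate and early and from 0.14 to 1.004 between BEC and early. Fn1 was lower in intermediate than in early past the threshold with DESeq2 (-0.27, adjusted p = 0.0353) and without intermediate replicate 3 (-0.33, adjusted p = 0.043), and lower in full than in early with DESeq2 (-0.25, adjusted p = 0.0473).

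**Figure D2:**
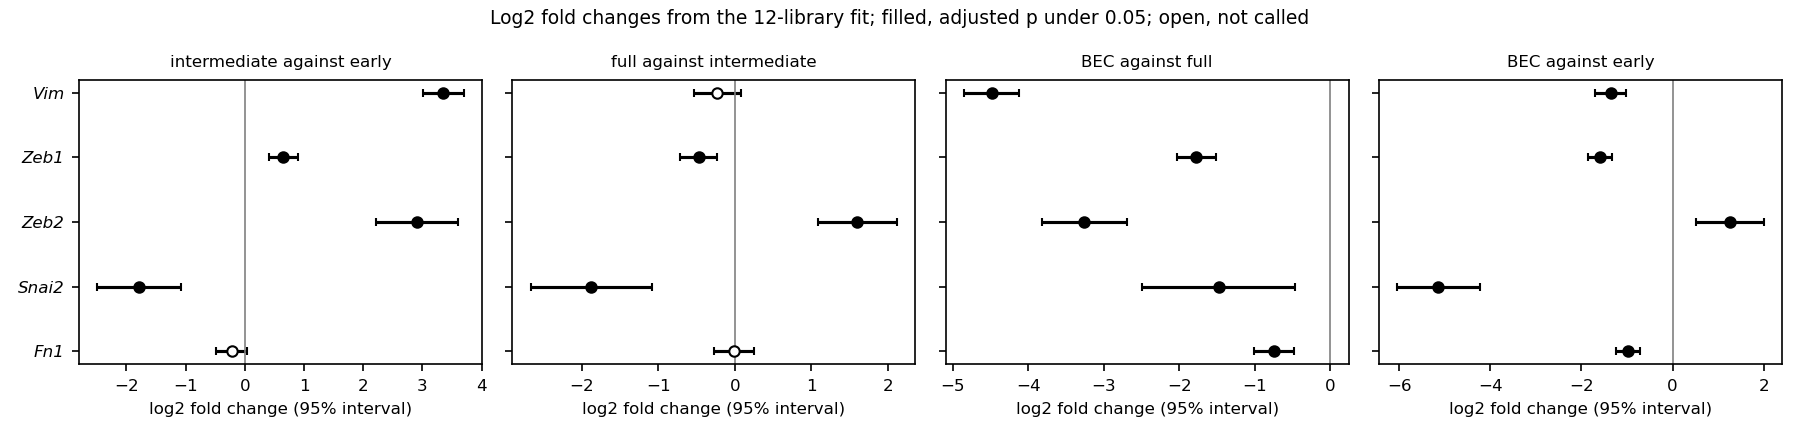
Log2 fold changes of the 5 tested genes with 95% intervals, in 4 comparisons between groups. Filled points passed the adjusted p threshold of 0.05 and open points did not. Vim, Zeb1 and Zeb2 lie to the right of 0 at the first step, and all 5 genes lie to the left of 0 in BEC against full.

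Across the 5 tested genes, 3 rose (Vim, Zeb1 and Zeb2) and 1 fell (Snai2) from early to intermediate, where 28.7% of all tested genes rose and 25.7% fell. From intermediate to full, 1 rose (Zeb2) and 2 fell (Zeb1 and Snai2), where 20.8% of all tested genes rose and 19.8% fell. All 5 were lower and 0 higher in BEC than in full, where 10.6% of all tested genes were lower and 10.7% higher, and 1 of the 5, Snai2, lost that call in the fits given above. All 5 were also lower and 0 higher in BEC than in intermediate, beside 26.2% and 26.3% of all genes. Between full and early, 2 rose (Vim and Zeb2) and 1 fell (Snai2), beside 39.1% and 32.1% of all genes. Between BEC and early, 1 was higher (Zeb2) and 4 were lower, beside 40.0% and 33.0%. The change at the second step lay below that at the first for 2 genes (Vim and Zeb1), beside 10.8% of all genes, and a difference among any of the groups was called for all 5, beside 75.6%. The comparisons share groups, so these counts are not independent of each other. The median log2 fold change of the 5 genes was 0.65 from early to intermediate, -0.23 from intermediate to full and -1.78 from full to BEC, beside 0.06, 0.01 and 0.00 for all tested genes.

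Of the other members, Snai1 was near the floor and Twist1, Twist2 and S100a4 were nearly without counts. Snai1, the founding Snail factor, had 4, 8 and 6 counts in the early replicates and 2, 3 and 0 in the intermediate replicates. It had 5, 0 and 2 counts in the full replicates and 4, 3 and 10 in the BEC replicates, so that 6 of 12 libraries were above the floor of 3 counts. By raw count, the early libraries all lay above the intermediate libraries and overlapped those of the full and BEC groups. In a fit with no filter on low counts, Snai1 differed between intermediate and early by -2.27 (SE 1.02, adjusted p = 0.0926), and no comparison of Snai1 passed the threshold. Twist1 had 14 counts in all, of which 6 were in full replicate 1, the highest count and the only library above the floor. Twist2 had 3 counts and S100a4 had 2 counts over all 12 libraries. Differences of these 3 genes were not detectable at these counts, and none was called in the fit with no filter.

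**Figure D3:**
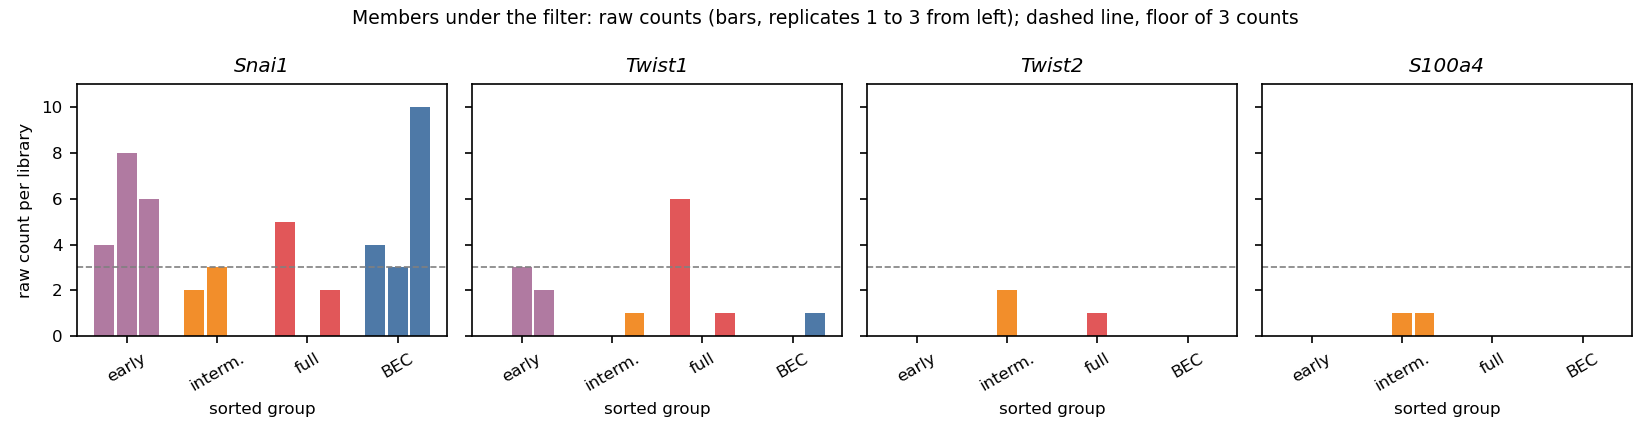
Raw counts of Snai1, Twist1, Twist2 and S100a4 in each library, by sorted group, on a linear axis from 0. The dashed line is the floor of 3 counts. Snai1 reached 10 counts in BEC replicate 3, and S100a4 never passed 1 count.

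Some members overlap other genes in the GENCODE M21 annotation, and whether counting used strand or how reads in shared exons were treated was not given in the sources used here. S100a4 overlaps Gm42674, a protein-coding gene model on the same strand that had 0 counts in all 12 libraries. A setting that drops reads in exons of both genes would lower S100a4, and its part in the S100a4 count was not tested. Zeb2 overlaps its antisense partner Zeb2os, which had at most 7 counts in a library, against 636 or more for Zeb2 in the full libraries. The overlapping genes Gm10125 and Gm16147 (for Zeb1) and Apol7d (for Fn1) had at most 10, 14 and 17 counts in a library. Each of these was under the count of its member in every library.

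Levels can be set against each other per kb of transcript. In the early group, Fn1 was 403 CPM per kb, Vim 9.62, Snai2 5.30, Zeb1 4.98 and Zeb2 0.141. In the full group, Fn1 was 343 CPM per kb, Vim 83.9, Zeb1 5.63, Zeb2 3.23 and Snai2 0.417. Snai2 was thus near Zeb1 in the early group and the lowest of the 5 in the full group. In the BEC group the levels were 204 for Fn1, 3.74 for Vim, 1.64 for Zeb1, 0.337 for Zeb2 and 0.149 for Snai2, each in CPM per kb. Over the 12 libraries, Pearson's r of log2 CPM was 0.844 between Vim and Zeb1, 0.78 between Vim and Zeb2, 0.855 between Fn1 and Zeb1, 0.837 between Fn1 and Snai2, 0.38 between Zeb1 and Zeb2 and -0.39 between Snai2 and Zeb2. These are descriptions without a test, over libraries that share 4 groups and their depth.

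By the same measure, among tested genes with at least 10 CPM in their highest group, the genes most like Vim were Col12a1 (0.987), Spon2 (0.982), Loxl2 (0.979), Lgals1 (0.976) and Myo7b (0.974). Col12a1 encodes a collagen, Loxl2 a lysyl oxidase of the matrix and nucleus, and Lgals1 a galactose-binding lectin. By Spearman's rho, Myo7b (0.986) and Lgals1 (0.965) stayed among the first 5 for Vim. The genes most like Zeb2 were Msc (0.983), Ncoa1 (0.980) and Ltbp4 (0.970). Those most like Zeb1 were Mob3b (0.983), Zfp281 (0.981) and Kcp (0.976), those most like Snai2 were Ak3 (0.991), Lamp2 (0.989) and Iqgap2 (0.988), and those most like Fn1 were Arhgap42, Dpp4 and Alpl (0.970 each). By Spearman's rho, Msc stayed among the first 3 for Zeb2, and the first 3 for the other members were different genes: Prelp, Ptp4a1 and Cnn3 for Zeb1, Rtf2, Tomm70a and Rcl1 for Snai2, and Epb41l5, Rps6kc1 and Neb for Fn1.

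Vim and the Zeb factors are also known from stellate cells, fibroblasts, endothelium and leukocytes, so markers of these cells were set beside them. The 16 stellate cell and fibroblast markers summed to 156 to 399 CPM in the early group, 1860 to 2550 CPM in the intermediate group, 3018 to 3490 CPM in the full group and 1741 to 2321 CPM in the BEC group, and this sum moved with Vim and Zeb2 at the first step. Most of that sum in the intermediate, full and BEC groups came from Rgs5. Without Rgs5 and Reln, left out after their values were seen, the other 14 markers, collagens and Dcn among them, summed to 79.7, 236 and 249 CPM in the early replicates and 54.3, 83.6 and 155 CPM in the intermediate replicates. They summed to 77.8, 53.8 and 78.7 CPM in the full replicates and 117, 98.4 and 141 CPM in the BEC replicates. Reln, left out, fell along the groups, at 71.4, 45.7, 21.6 and 8.97 CPM in early, intermediate, full and BEC. Ecm1, 1 of the 14, rose instead, at 8.96, 15.9, 20.9 and 40.5 CPM, so the sum mixes opposite trends. The full libraries, with the highest Zeb2, lay below every early and BEC library in the sum of 14. Early replicate 1, with 79.7 CPM of these markers, had the highest Snai2 of the early group. Within the early group, Zeb2 was lowest in the replicate with the fewest of these markers (0.554 CPM). Within the intermediate, full and BEC groups, Zeb2 was instead highest in the replicate with the fewest of them (11.1, 30.7 and 4.19 CPM).

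Markers of endothelium, macrophages, other leukocytes and mesothelium were summed in the same way. The 11 endothelial markers summed to 66.8 to 72.3 CPM in the early group, 57.8 to 73.2 CPM in the intermediate group, 75.3 to 82.5 CPM in the full group and 37.3 to 46.1 CPM in the BEC group. Without Flt4, the other 10 summed to 17.9 to 28.8, 15.2 to 24.5, 8.72 to 13.3 and 6.02 to 13.2 CPM in the same order. The 11 macrophage markers summed to 24.8 to 27.4 CPM in the early group, 30.6 to 39.1 CPM in the intermediate group, 65.9 to 94.8 CPM in the full group and 133 to 160 CPM in the BEC group, and without Csf1r the other 10 summed to 21.0 to 23.5, 5.97 to 14.5, 4.89 to 21.4 and 4.82 to 40.9 CPM. Flt4, Csf1r and, in the next list, Msln were left out after their values were seen. The 8 markers of other leukocytes summed to at most 6.17 CPM in a library, with 5 of 8 at the floor in the early, intermediate and full groups. The 5 mesothelial markers summed to 20.4 to 30.7 CPM in the full group and 188 to 214 CPM in the BEC group, nearly all of it from Msln. Without Msln, the other 4 summed to 2.53 to 4.64 CPM in the early group, 0.629 to 1.75 CPM in the intermediate group, 1.87 to 3.19 CPM in the full group and 1.16 to 1.44 CPM in the BEC group. The part of such cells in the levels of the members was not tested beyond these values.

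**Figure D4:**
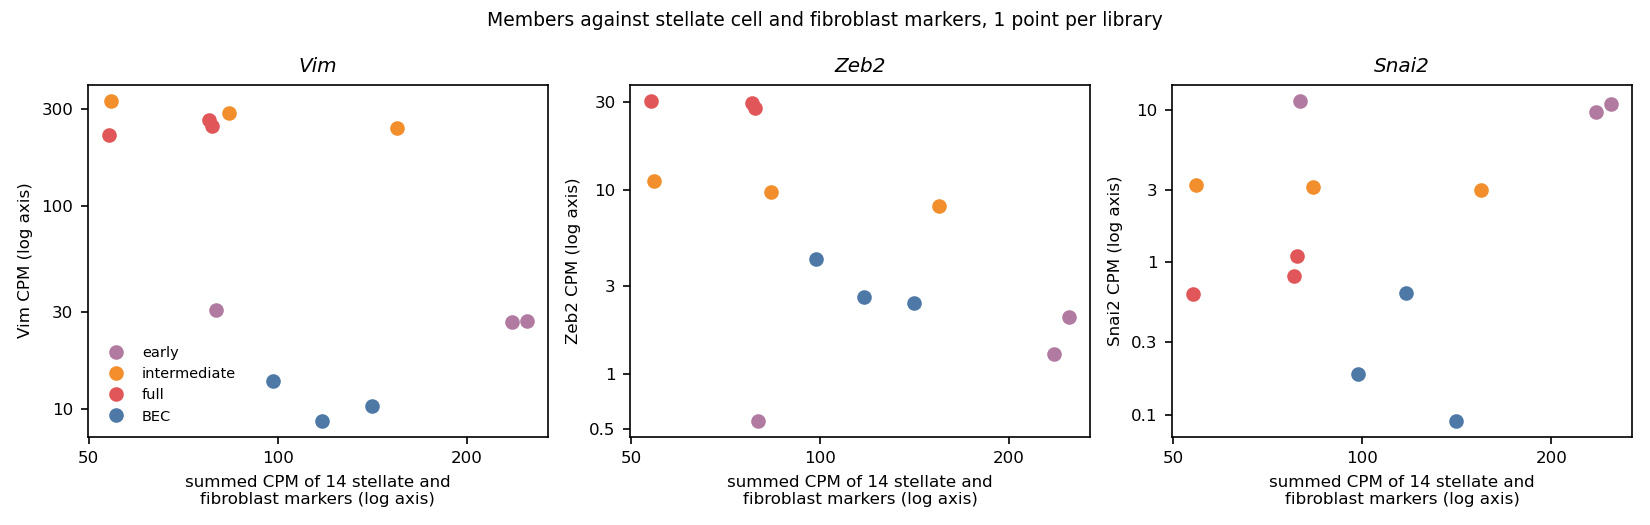
Level of Vim, Zeb2 and Snai2 against the summed level of 14 stellate cell and fibroblast markers (without Rgs5 and Reln), both in CPM on log axes, with 1 point per library. The intermediate and full libraries have Vim at 223 CPM or more with marker sums of 53.8 to 155 CPM, and early replicate 1 has 11.5 CPM of Snai2 with a marker sum of 79.7 CPM.

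The genes around the members were read in lists chosen with earlier results of these data known, and their counts are descriptions without a list test. They stand beside the shares of all tested genes, of which 28.7% rose and 25.7% fell from early to intermediate, 20.8% rose and 19.8% fell from intermediate to full, and 10.7% were higher and 10.6% lower in BEC than in full. With total counts alone, a larger share of all calls was higher at the first 2 of these comparisons, and counts under that scaling are given with the lists. Among 11 other transcription factors of the transition, 9 were tested, of which 4 rose and 1 fell from early to intermediate, 4 rose and 0 fell from intermediate to full, and 3 were higher and 1 lower in BEC than in full. At the first step, 6 rose and 1 fell with total counts alone. Tcf3, which encodes the E-box factors E12 and E47, was 57.4 CPM in early, 110 in intermediate, 132 in full and 120 in BEC, and rose at the first step (log2 fold change 0.93, SE 0.09, adjusted p = 1.42e-06). Foxq1, a forkhead factor, fell from 18.0 CPM to 4.06 CPM at the first step (log2 fold change -2.16, SE 0.23, adjusted p = 3.85e-06) and was 14.5 CPM in BEC. Foxc1, another forkhead factor, was at the floor in early and 0.633, 4.71 and 15.3 CPM in intermediate, full and BEC. Tcf4 was lower in BEC, at 24.3 CPM, than in full, at 38.0 CPM (log2 fold change -0.64, SE 0.13, adjusted p = 0.0028). The median log2 fold changes of this list were 0.91, 0.27 and -0.03 at the 3 comparisons, or 0.81, 0.11 and -0.03 when a gene at the floor was given its bound, beside 0.06, 0.01 and 0.00 for all tested genes.

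RNA of genes for proteins that the Snail and Zeb factors act with, or that act on these factors, was mostly higher from the first step. Of 16 corepressors, enzymes and regulators of stability, 15 rose and 0 fell from early to intermediate, where 28.7% of all tested genes rose, 5 rose and 0 fell from intermediate to full, and 3 were higher and 4 lower in BEC than in full. Their medians were 0.67, 0.19 and -0.03. Under total counts, 16 rose at the first step and 11 at the second. Ctbp2, a corepressor that binds Zeb proteins, had at most 3 counts in an early library and was 7.48 ± 2.35, 33.4 ± 2.02 and 56.5 ± 6.33 CPM (SD, n = 3 each) in intermediate, full and BEC cells, a rise at each comparison. Loxl2, described as a stabiliser of Snai1, was 5.08, 43.7, 34.9 and 3.47 CPM in the same order as the groups, and was lower in BEC than in full (log2 fold change -3.33, SE 0.20, adjusted p = 1.08e-07). Hdac1, a histone deacetylase, rose to 62.7 CPM from 44.8 CPM, and Btrc, a subunit of a ubiquitin ligase for Snail proteins, to 39.7 CPM from 32.9 CPM, at the first step.

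Factors known to oppose the transition were divided at both steps, and most were higher in BEC than in full. Of 14, 5 rose and 5 fell from early to intermediate, 6 rose and 4 fell from intermediate to full, and 11 were higher and 0 lower in BEC than in full, where 10.7% of all tested genes were higher. In BEC against early, 9 were higher and 3 lower, beside 40.0% and 33.0% of all genes. The medians at the successive comparisons were 0.54, 0.52 and 1.25, and the first became 0 when 5 genes at the floor were given their bound. Esrp1, an epithelial splicing regulator, had 0 counts in the early and intermediate libraries, and was 10.8 ± 3.87 CPM in full and 92.0 ± 5.90 CPM in BEC. Its relative Esrp2 ran the other way in labelled cells, at 166, 82.0 and 55.1 CPM in early, intermediate and full, and was 70.9 CPM in BEC, higher than in full (log2 fold change 0.36, SE 0.10, adjusted p = 0.0155). Klf5, a Kruppel-like factor of epithelia, was at the floor in early and 3.59, 45.3 and 134 CPM in intermediate, full and BEC. Grhl1, a grainyhead-like factor, was 5.18 CPM in intermediate and 3.08 CPM in full, a fall (log2 fold change -0.75, SE 0.25, adjusted p = 0.0277), and Id4, an inhibitor of helix-loop-helix factors, fell from 3.53 CPM to 0.482 CPM at the first step. Total-count scaling gave 5 that rose and 3 that fell at the first step, and 7 and 2 at the second.

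Epithelial junction genes, among them known targets of Snail and Zeb repression, mostly rose along the labelled groups and into BEC. Of 18, 11 rose and 2 fell from early to intermediate, 12 rose and 1 fell from intermediate to full, and 10 were higher and 1 lower in BEC than in full. Under total-count scaling, 16 rose and 1 fell at the first step and 15 rose and 1 fell at the second. The medians were 0.65, 0.73 and 0.49, the first becoming 0.57 when 2 genes at the floor were given their bound. Muc1, a membrane mucin, had 0 counts in the early libraries and was 0.443 ± 0.396, 28.4 ± 9.73 and 316 ± 73.0 CPM (SD, n = 3 each) in intermediate, full and BEC cells. Spint1, an inhibitor of membrane proteases, was 0.308, 3.63, 84.8 and 246 CPM in early, intermediate, full and BEC, a rise at each comparison. Cdh1, which encodes E-cadherin, was outside the rule for named genes and was chosen after its values were seen. It went from 335 to 633 CPM, a rise at the first step (log2 fold change 0.92, SE 0.10, adjusted p = 2.86e-06), rose to 1106 CPM at the second (0.81, SE 0.10, adjusted p = 1.79e-05), and was 1502 CPM in BEC (0.44, SE 0.10, adjusted p = 0.00418). Cldn1, a claudin, fell at each step, from 123 CPM in early to 33.6, 4.34 and 1.45 CPM.

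Genes of mesenchymal matrix and adhesion were more often lower than higher in full against early, and few were called at each single step. Of 20, 16 were tested, of which 3 were higher and 10 lower in full than in early (median -1.92), where 32.1% of all tested genes were lower, and 1 was higher and 6 lower in BEC than in early (median -1.07), beside 40.0% and 33.0% of all tested genes. The list shares Col1a1, Col1a2, Col3a1, Dcn and Lum with the stellate cell and fibroblast markers, which moved with it: of 15 such markers tested, 3 were higher and 11 lower in full than in early (median -1.62), and 2 were higher and 8 lower in BEC than in early (median -1.23), or 3 and 4, and 2 and 1, with total counts alone. The part of such cells in this list's counts was not tested. Of the 16 matrix and adhesion genes, 2 rose (Cdh2 and Sparc) and 2 fell (Col1a2 and Dcn) from early to intermediate, 2 rose (Sparc and Col5a1) and 1 fell from intermediate to full, and 0 were higher and 2 lower (Cdh2 and Col5a1) in BEC than in full. The medians were -1.03, -0.73 and 0.67. Sparc, a secreted collagen-binding protein, was 26.3, 215, 485 and 366 CPM in early, intermediate, full and BEC, and rose at the first step (log2 fold change 3.04, SE 0.27, adjusted p = 5.42e-07) and the second (1.17, SE 0.25, adjusted p = 0.00174). Cdh2, N-cadherin, which hepatocytes also express, was 175, 223, 259 and 33.0 CPM, and was lower in BEC than in full (log2 fold change -2.97, SE 0.13, adjusted p = 1.11e-08). Col1a2, a fibrillar collagen also in the stellate cell list, was 34.7 ± 17.6, 14.3 ± 9.11, 7.0 ± 3.20 and 14.7 ± 4.69 CPM (SD, n = 3 each). Col5a1, another fibrillar collagen, was 4.04 CPM in intermediate, 11.9 CPM in full and 4.25 CPM in BEC. Scaling by total counts gave 3 higher and 6 lower in full than in early, 1 higher and 2 lower in BEC than in early, 2 that rose and 0 that fell at the first step, and 3 that rose and 1 that fell at the second.

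Among 6 relatives and linkers of the vimentin filament, 2 rose from early to intermediate (Nes and Prph), 3 rose from intermediate to full (Nes, Gfap and Synm) and 2 were lower in BEC than in full (Nes and Prph). Under total counts alone, 4 rose at each of the first 2 comparisons. Nes, which encodes nestin, a filament protein that assembles with vimentin, was 0.653 ± 0.428, 11.3 ± 4.08, 42.9 ± 1.22 and 12.8 ± 3.49 CPM (SD, n = 3 each) in early, intermediate, full and BEC cells. It rose at the first step (log2 fold change 4.12, SE 0.42, adjusted p = 1.90e-06) and the second (1.93, SE 0.27, adjusted p = 6.35e-05), and was lower in BEC than in full (-1.74, SE 0.26, adjusted p = 0.000269). Nes thus peaked in the full group, as Zeb2 did. Prph, peripherin, was 1.55, 2.94, 2.23 and 0.405 CPM, and Synm, synemin, was 2.21, 2.58, 4.85 and 6.24 CPM. Plec, the linker plectin, was 348 CPM in early and 510 CPM in BEC, and Des, desmin, stayed under 1 CPM in the group means. Gfap was 0.744 CPM in full and 1.34 CPM in BEC, and at or near the floor before. The medians were 0.56, 0.57 and -0.25, the first becoming 0.16 when 1 gene at the floor was given its bound.

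**Figure D5:**
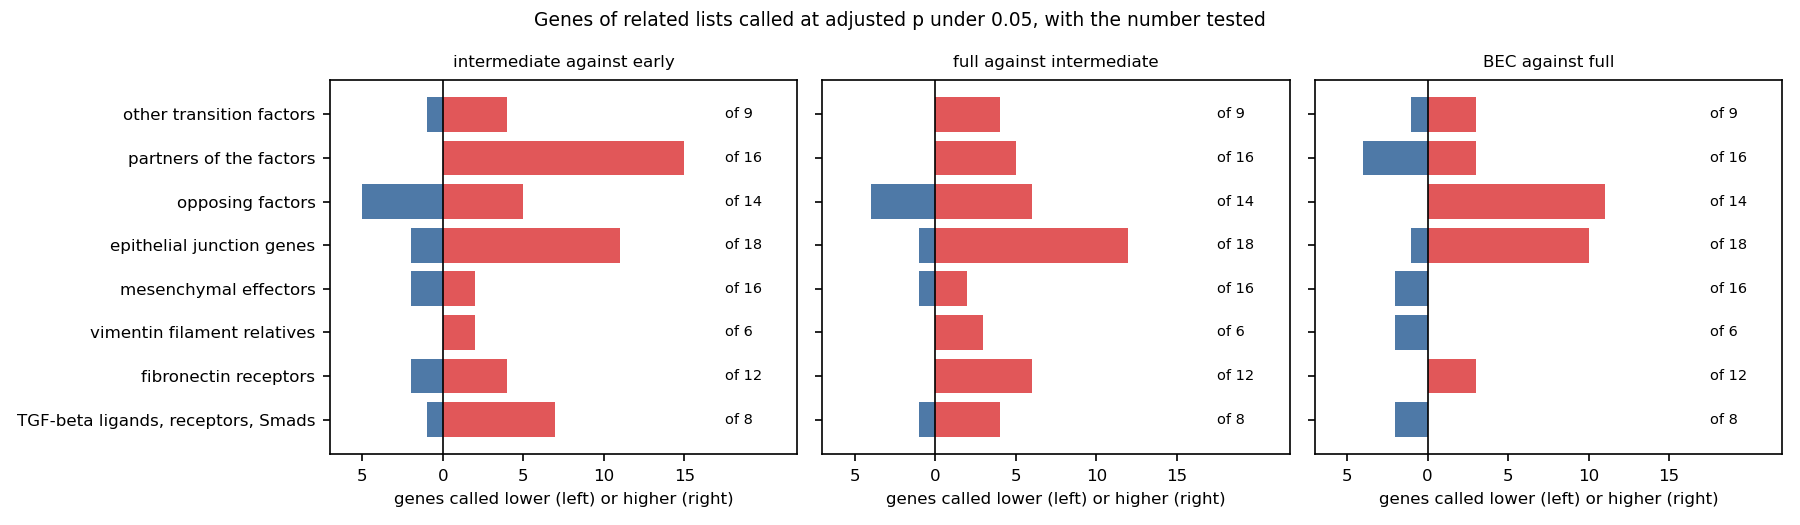
Number of genes of each related list that passed the adjusted p threshold, lower to the left and higher to the right of 0, in 3 comparisons, with the number tested beside each bar. Partners of the factors rose in 15 of 16 cases at the first step, and opposing factors were higher in 11 of 14 cases in BEC against full.

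Fibronectin receptors and partners were counted at the first step at shares near those of all tested genes. Of 12, 4 rose and 2 fell from early to intermediate, 6 rose and 0 fell from intermediate to full, and 3 were higher and 0 lower in BEC than in full, with medians of 0.17, 0.25 and 0.33. Itgb8, an integrin chain that pairs with Itgav, was 0.742, 40.8, 96.9 and 146 CPM in early, intermediate, full and BEC, a rise at each comparison. Itgb6, another partner of Itgav, was at the floor in early and 0.318, 12.4 and 114 CPM in the following groups. Itgav was 443 CPM in full and 654 CPM in BEC (log2 fold change 0.56, SE 0.14, adjusted p = 0.009), and Itgb1, the common chain of fibronectin receptors, rose from 405 to 483 CPM from intermediate to full (0.26, SE 0.09, adjusted p = 0.0307). Fbln1, fibulin 1, was 1.70 CPM in early and 0.551 CPM in intermediate. Total counts alone gave 8 that rose and 0 that fell at the first step, and 7 and 0 at the second.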

How the data were processed

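The authors deposited raw read counts per gene symbol for 12 libraries. STAR 2.7.10b, featureCounts 2.0.1, DESeq2 and the build GRCm39 are named in the submitters' processing notes. The annotation, the use of strand and the rule for reads with several matches were not given in the sources used here. A second deposited table of signal gives each count over a size factor of its library and was not used in tests. Groups were taken from the sample labels. Counts were fitted with edgeR 4.0.16 (R 4.3.3) by its quasi-likelihood test, with TMM factors, the filterByExpr filter and 1 term per group, and p-values were adjusted by the Benjamini-Hochberg method over 16210 genes. SE is the log2 fold change over the root of F. Alternatives were DESeq2 1.42.0, other factors and filters, a minimum 2-fold change, fits of 6 libraries, a replicate block and leaving out each library. Replicates within a group differed by more than sampling noise (chi-square per degree of freedom 4.95 to 52.1). Deviations of same-numbered libraries correlated at 0.121 to 0.322 over the 3 successive comparisons, and at 0.0442 to 0.209 in the other comparisons. These ranges overlap, and libraries with unlike numbers were not correlated. Whether the numbers, which the labels give, pair the libraries was therefore not settled. The script was tested on simulated data in which a small part of the genes was changed, in the intermediate group only and equally up and down. Such data hold no shift in most genes, so they do not test the scaling of libraries in comparisons against early. The 9 members and the lists were chosen with earlier results of these data known. Named genes were the members and, of each list and each of the 3 successive comparisons, the called genes of largest and smallest log2 fold change whose higher group reached 1 CPM, with whole lists of 6 or fewer genes. A gene that this rule names is not reported here. Bounds for genes at the floor used the highest floor of the group, and were computed after the data were seen. Per-kb levels used the longest transcript of a gene in GENCODE M21, and promoter sequences are from RefSeq (GRCm38.p6).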

Additional observations from a re-analysis of the deposited data

How the results depend on the processing

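The number of members called kept within 1.5 times its value under DESeq2, median-of-ratios factors, no filter, a mean of at least 50 counts and the 6 libraries of each pair of groups. With the replicate block, members called were 4, 3 and 5 at the 3 successive comparisons, as without it, and no member's call changed. Genes called with that block were 9274, 7300 and 4096. A test against a minimum 2-fold change called 2773 genes from early to intermediate, 1931 from intermediate to full, 803 from full to BEC, 5671 from early to full, 6129 from early to BEC and 3202 from intermediate to BEC, and 3 members in BEC against full and 3 in BEC against early. Total counts alone called 5 members between full and early, and 6139 genes for the difference between the steps, against 2665. The share of calls that were higher then moved from 52.8% to 85.6% at the first step, from 51.2% to 72.6% at the second, from 54.9% to 81.8% over both, from 54.8% to 80.3% for BEC against early and from 50.1% to 66.5% for BEC against intermediate. Leaving out 1 library at a time gave 1676 to 2863 genes for the difference between the steps, the lowest without intermediate replicate 2. Over those fits, members called ranged from 4 to 5 between intermediate and early and between BEC and full, and from 3 to 4 between full and early. Fn1 changed sign with total counts between intermediate and early (0.44), between full and early (0.63) and between the steps (-0.25). Fn1 between full and intermediate was -0.01, and turned to 0.0261 with DESeq2, 0.0261 with median-of-ratios factors, 0.19 with total counts and 0.0125 with a mean of at least 50 counts, with a range of -0.0819 to 0.0937 over the fits without 1 library. The difference of the steps of Snai2 was 0.00052 with median-of-ratios factors and -0.33 to 0.0740 without 1 library. The TMM factors, which total counts alone leave out, were 0.652 to 0.672 in the early libraries and 1.03 to 1.22 in the other libraries. The cause of the changes in this paragraph was not tested. Low counts limit Snai1, Twist1, Twist2 and S100a4, and Snai2 in the BEC group, and the part of the overlapping gene Gm42674 in the S100a4 count was not tested.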

Other observations

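The TGF-beta ligands, receptors and Smads, known inducers of the transition, were mostly higher in the other 3 groups than in early. Of 8 genes, 7 rose and 1 fell from early to intermediate, beside 28.7% and 25.7% of all tested genes. From intermediate to full, 4 rose and 1 fell, beside 20.8% and 19.8%, and 0 were higher and 2 lower in BEC than in full, beside 10.7% and 10.6%. The median log2 fold changes were 1.04, 0.30 and -0.03. In BEC against early, 7 were higher and 1 lower (median 1.17), beside 40.0% and 33.0%. With total counts alone, 7 were higher and 0 lower there, 7 rose and 0 fell at the first step and 6 rose and 1 fell at the second. The ligand gene Tgfb3 was 0.478 ± 0.370, 12.1 ± 3.30, 54.0 ± 1.79 and 61.4 ± 6.05 CPM (SD, n = 3 each) in early, intermediate, full and BEC cells, and rose at the first step (log2 fold change 4.65, SE 0.34, adjusted p = 1.07e-07) and the second (2.16, SE 0.20, adjusted p = 1.84e-06, edgeR). Tgfb1 and Tgfb2 were lower in BEC, at 18.6 and 93.8 CPM, than in full, at 31.0 and 135 CPM. The receptor gene Tgfbr2 fell at both steps, from 203 CPM in early to 144 and 96.1 CPM.

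Among 5 genes that lie near S100a4 or encode its binding partners, S100a3 and S100a5 were not tested. Of the other 3, 2 rose at the first step, 0 at the second and 1 from full to BEC, or 3, 1 and 1 with total counts alone, and 0 fell. Of all tested genes, 28.7%, 20.8% and 10.7% were higher at these comparisons, and 25.7%, 19.8% and 10.6% lower. S100a6, a calcium-binding relative of S100a4, was 43.4, 140, 106 and 186 CPM in early, intermediate, full and BEC, and rose at the first step (log2 fold change 1.69, SE 0.16, adjusted p = 1.30e-06) and from full to BEC (0.81, SE 0.16, adjusted p = 0.00182, edgeR). Myh9, a nonmuscle myosin heavy chain, rose from 769 to 1545 CPM at the first step, and Ppfibp1, a liprin, was 127 CPM in early and 130 CPM in BEC, with no call.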
